A study of Mus musculus with 2 samples.

Results

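9 genes of inflammatory cytokine and alarmin signalling were described here across brain cell classes, namely Il1a, Il1b, Il1rn, Il1r1, Il6, Tnf, Il18, Il33 and Tslp. They were taken by symbol, and all 9 were found among the 25827 genes of both deposited matrices. The libraries were droplet libraries of single cells from whole brains of adult mice, made with the 10x Genomics 3′ v3.1 kit, in which each captured transcript carries a unique molecular identifier (UMI). Cells had been sorted as mural cells and fibroblasts (CD13+ and/or CD140a+, with O4- cells taken), endothelial cells (CD31+), astrocytes (ACSA-2+), border-associated macrophages (BAMs, CD11bhi F4/80+) and microglia (CD11b+ F4/80hi). 1 library was labelled IL34LacZ/+ and 1 was labelled IL34LacZ/LacZ, and they are called heterozygous-labelled and homozygous-labelled below. Both groups carried at least 1 LacZ allele of Il34, the gene of a macrophage growth factor, and wild-type cells were not analysed here. How many animals, and of which sex, went into a library is not stated in the labels.

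IL-1α and IL-1β are both ligands of IL-1R1, which is encoded by Il1r1, and the antagonist encoded by Il1rn occupies that receptor without signalling. IL-1β and IL-18 are made as precursors that caspase-1 cuts in inflammasomes, IL-33 is a nuclear protein that acts as an alarm signal when cells are damaged, and TSLP is a cytokine related to IL-7 that is best known from epithelial barriers. TNF and IL-6 are inducible cytokines of activated macrophages and many other cells.

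The matrices held 17168 and 18858 barcodes with 87394167 and 95505407 UMIs, of which 8179 and 9519 cells were kept with a median of 3539 and 3675 UMIs (heterozygous-labelled value before homozygous-labelled value, here and throughout). Cells fell into 32 clusters, and names such as "BAM-like" were given from marker genes. 15 named classes resulted, and 6 clusters with 16.7% and 18.5% of the kept cells stayed unnamed and are called by their leading genes. 103 cell barcodes occurred in both libraries, 26 of them among kept cells. BAM, microglia, endothelial, mural and fibroblast markers each defined a class, whereas astrocyte-like cells numbered 13 and 15 only. Classes outside the sort gates were also present, among them neurons, oligodendrocytes and neutrophils by their markers. Il34 itself was read at 123 and 105 counts per 1000000 UMIs (CPM) in mural-like cells, but it is not stated which part of Il34 LacZ replaced, so this 3′ reading does not check the genotype.

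Levels are given as CPM of the class, with exact Poisson 95% intervals in brackets. 16 classes or unnamed clusters had at least 50 cells in each library and were compared. With 1 library per genotype no test was possible, and all intervals cover counting error only. A gene was called higher or lower in the homozygous-labelled library when the libraries together held 50 UMIs of it or more, the levels differed by 1.5-fold or more and the 95% counting interval of their ratio left out 1. Such a call describes these 2 libraries.

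**Figure D1:**
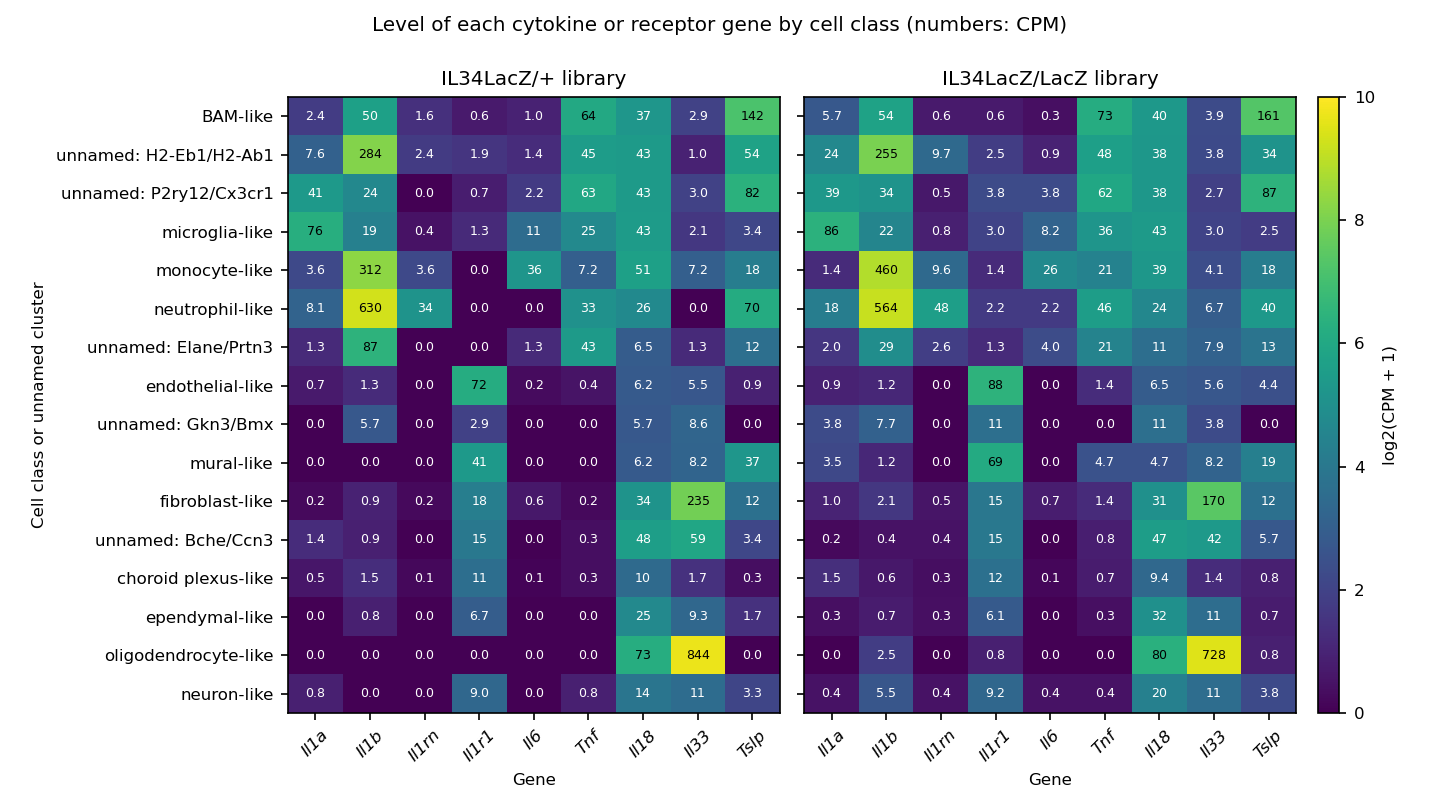
Level of each of the 9 genes (columns) in 16 cell classes or unnamed clusters (rows), with 1 panel per library. Colours give log2(CPM + 1) and the printed numbers are CPM. Il33 was highest in oligodendrocyte-like cells (844 and 728 CPM), Il1b in neutrophil-like cells (630 and 564 CPM), Tslp in BAM-like cells (142 and 161 CPM) and Il1r1 in endothelial-like cells (72.1 and 88.04 CPM).

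Start-site sequences are shown for the windows that held TATAAA or, in Il6, an NF-kappaB match. The other windows searched held neither and are not printed. No binding or chromatin readout was used here. RefSeq, build GRCm38.p6, held a promoter entry for 8 members, and the 100 bases before the start are printed 5′ to 3′ on the strand of the gene. The windows are chr2:129309973-129310072 (minus strand) for Il1a, chr2:129371140-129371239 (minus) for Il1b, chr17:35202008-35202107 (minus) for Tnf, chr5:30013014-30013113 (plus) for Il6 and chr19:29945690-29945789 (plus) for the second of 2 listed Il33 starts. Capitals mark the letters TATAAA, or in Il6 a match to the NF-kappaB motif.
Il1a: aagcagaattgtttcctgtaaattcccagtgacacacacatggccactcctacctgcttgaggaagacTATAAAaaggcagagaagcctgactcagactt
Il1b: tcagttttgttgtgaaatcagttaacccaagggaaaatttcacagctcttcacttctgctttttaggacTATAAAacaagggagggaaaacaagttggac
Tnf: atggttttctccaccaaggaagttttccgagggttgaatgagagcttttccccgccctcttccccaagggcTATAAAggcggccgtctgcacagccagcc
Il6: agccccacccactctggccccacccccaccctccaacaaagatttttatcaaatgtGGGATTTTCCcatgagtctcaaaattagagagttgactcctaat
Il33: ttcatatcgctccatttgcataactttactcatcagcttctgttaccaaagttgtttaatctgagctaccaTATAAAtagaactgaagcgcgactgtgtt

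12 windows of the 8 members were searched, and TATAAA was found in 4 of them, which are printed together with the Il6 window. It began 32 bases before the start in Il1a, 31 in Il1b, 29 in Tnf and 29 in Il33. Of 32817 RefSeq windows of the same length, 1.75% held these letters on the strand of the gene 25 to 35 bases before the start, and 5.57% held them anywhere on either strand. The NF-kappaB match of Il6 began 44 bases before the start, and 3.00% of all windows held such a match. Both strands were searched for all motifs. TGANTCA, the AP-1 motif, was found 12 bases before the start of Il1a (2.73% of all windows), and TTGCNNAA, a C/EBP motif, 85 bases before the start of Il33 (3.43%). Il1a and Il1b lie 54597 bp apart on chromosome 2, at 129299610-129309972 and 129364570-129371139 in the GENCODE annotation of GRCm38.

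Il1a, the gene of IL-1α, was highest in microglia-like cells, at 76.3 CPM (65.6 to 88.3) from 181 UMIs and 85.7 CPM (76.5 to 95.7) from 314 UMIs. The libraries overlapped there, with a ratio of 1.12 (0.932 to 1.36). A UMI of Il1a was seen in 17.5% and 20.7% of microglia-like cells at a median depth of 2702 and 3080 UMIs, beside 0.175% and 0.245% of endothelial-like cells at 2066 and 2074 UMIs. An unnamed cluster led by the microglial genes P2ry12 and Cx3cr1 followed at 40.8 and 39.0 CPM. In that cluster 9511 and 9750 CPM came from the 10 BAM markers and 10713 and 9896 CPM from the 10 microglia markers. Its median depth was 7271 and 7261 UMIs, above that of BAM-like (3383 and 3848) and microglia-like cells. Whether doublets remained in it was not tested. BAM-like cells were near the bottom of the immune classes, at 2.41 CPM (1.35 to 3.97) and 5.67 CPM (3.95 to 7.88). By order of mean level, Il1a was 20.1-fold lower in BAM-like than in microglia-like cells, and their intervals were far apart in both libraries. Over the 16 groups, P2ry12 (mean Pearson r of log2(CPM + 1) over the libraries 0.951) and Siglech (0.932) were among the genes whose pattern was most like Il1a, of 15016 genes compared; classes of 1 library share its depth and free RNA.

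Il1a was also the only member called higher in any of the 16 groups, in 2 of the 4 where it had enough UMIs. In BAM-like cells, where 1.87% of 10164 genes were called higher and 1.46% lower, it had 15 UMIs in 13 cells and 35 UMIs in 17 cells, a ratio of 2.36 (1.25 to 4.64). These UMIs only just met the minimum of 50. 1 cell held 31.4% of the homozygous-labelled UMIs, and without the richest cell of each library 13 and 24 UMIs were left, the ratio was 1.86 (0.912 to 3.99) and the call was lost. It was also lost with at least 2000 UMIs per cell (13 and 32 UMIs, ratio 2.41) and at clustering resolution 0.5 (14 and 34 UMIs, ratio 2.45), where the UMIs were under the minimum. The other call was in an unnamed cluster led by the MHC class II genes H2-Eb1 and H2-Ab1, in which 5 of 5 markers of MHC-II-high macrophages were at least 2-fold enriched. There Il1a stood at 7.61 CPM (4.35 to 12.4) from 16 UMIs and 24.4 CPM (19.3 to 30.4) from 78 UMIs, a ratio of 3.21 (1.86 to 5.88), beside 3.79% of 8186 genes called higher. The homozygous-labelled level was above the other and the intervals did not overlap. With at most 5% mitochondrial UMIs the ratio was 1.86 (0.920 to 4.07) from 11 and 34 UMIs, and the call was lost. In cells of this cluster with under 0.5% of their UMIs in BAM markers the levels were 13.6 and 36.9 CPM, and in the other cells 3.87 and 9.56 CPM. Microglia markers moved in the same direction, from 3442 to 4258 summed CPM over all 10 genes, and their part in the result was not tested.

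Il1b, the gene of IL-1β, was highest in neutrophil-like cells, at 630 CPM (569 to 696) from 387 UMIs in 35 of 73 cells and 564 CPM (524 to 605) from 754 UMIs in 62 of 121 cells. Each positive cell held 11.1 and 12.2 UMIs on average. The ratio of 0.895 (0.790 to 1.01) was not a call. With at most 5% mitochondrial UMIs the levels were 317 and 338 CPM, and at a coarser clustering (resolution 0.5) 329 and 280 CPM. Monocyte-like cells followed at 312 CPM (86 UMIs) and 460 CPM (334 UMIs), a ratio of 1.47 (1.16 to 1.89) that fell short of the limit of 1.5. The cluster led by H2-Eb1 and H2-Ab1 stood at 284 and 255 CPM, with a UMI in 26.5% and 28.2% of its cells at a median of 4294 and 4612 UMIs against 0.350% and 0.307% of endothelial-like cells. Microglia-like cells, highest for Il1a, had only 19.4 and 22.4 CPM of Il1b. Within them, cells with at least 2 UMIs of the BAM markers held 39.7 CPM, from 38 UMIs in 5 of 217 cells, and 43.9 CPM, from 68 UMIs in 20 of 333 cells. The remaining cells held 5.65 CPM (2.44 to 11.1), from 5 of 537 cells, and 6.62 CPM (3.62 to 11.1), from 11 of 705 cells, so few cells carried Il1b on either side. The same split of microglia-like cells gave 72.2 and 97.4 CPM of Il1a with these markers and 79.1 and 77.1 CPM without them, with a UMI in 52 and 90 and in 80 and 125 cells. Osm (0.962), Cd52 (0.952) and Ccl6 (0.942) had the patterns most like Il1b over the 16 groups.

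In BAM-like cells Il1b stood at 50.02 and 53.9 CPM, concentrated in few cells. 14 of 1547 cells held 50.6% of its UMIs in the heterozygous-labelled library and 11 of 1367 cells held 52.3% in the homozygous-labelled library. The BAM-like cluster led by the chemokine genes Ccl7 and Ccl2 had 117 CPM (206 UMIs) and 146 CPM (266 UMIs) of Il1b, while the cluster led by Cd209f and Cd163 had 17.97 CPM (66 UMIs) and 14.9 CPM (57 UMIs). The Ccl7/Ccl2-led cluster also carried the most immediate-early and dissociation RNA, 44859 and 41695 summed CPM over 14 genes against 14855 and 14312 in the Cd209f/Cd163-led cluster; the part of this in the result was not tested. Il1b was called lower in an unnamed cluster led by the granulocyte precursor genes Elane and Prtn3, at 86.5 and 29.1 CPM (ratio 0.336, 0.225 to 0.499, beside 4.46% of 5432 genes called lower). That value came from 1 heterozygous-labelled cell with 61 of the 67 UMIs, and the ratio was 1.61 (0.619 to 4.93, from 6 and 19 UMIs) without the richest cell of each library and 3.78 with cells down to 500 UMIs kept.

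Il1rn, the antagonist, had few UMIs and was highest in neutrophil-like cells, at 34.2 CPM (21.2 to 52.3) from 21 UMIs and 47.8 CPM (36.8 to 61.1) from 64 UMIs. The intervals overlapped. With at most 5% mitochondrial UMIs the levels were 14.6 and 31.1 CPM, and at resolution 0.5 they were 15.2 and 23.9 CPM. Monocyte-like cells had 1 and 7 UMIs, and the H2-Eb1/H2-Ab1-led cluster 5 and 31 UMIs (2.38 and 9.69 CPM), under the minimum of 50 UMIs for a call. In BAM-like cells 10 and 4 UMIs were counted, so any difference there was not detectable at this depth.

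**Figure D2:**
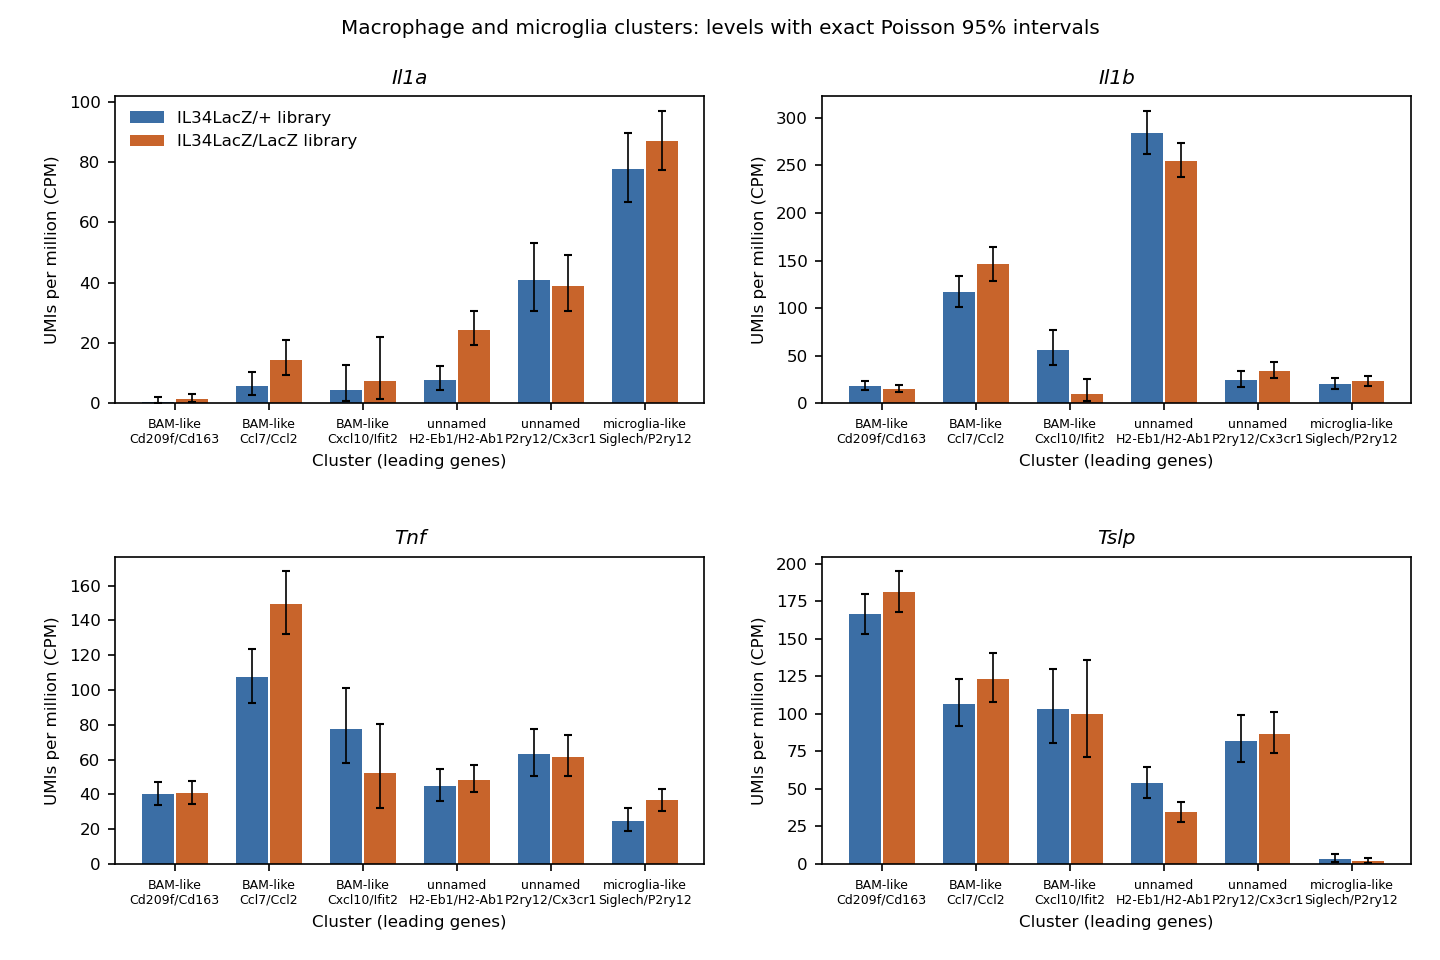
Levels of Il1a, Il1b, Tnf and Tslp (CPM, bars, with exact Poisson 95% intervals as error bars) in the macrophage and microglia clusters of each library, named by class and leading genes. Il1a is tallest in the microglia-like cluster, Il1b in the H2-Eb1/H2-Ab1-led cluster (284 and 255 CPM), Tnf in the Ccl7/Ccl2-led BAM-like cluster (107 and 149 CPM) and Tslp in the Cd209f/Cd163-led BAM-like cluster (166 and 181 CPM).

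Il1r1, the signalling receptor of IL-1α and IL-1β, was highest in vascular cells. Endothelial-like cells held 72.1 CPM (64.5 to 80.4) from 325 UMIs and 88.04 CPM (79.4 to 97.4) from 380 UMIs, a ratio of 1.22 (1.05 to 1.42) that was no call beside 2.71% of 10291 genes called higher. Within the class it was concentrated in the cluster led by Vwf and Tmem252, in which 5 of 5 venous markers were at least 2-fold enriched. That cluster, with 178 and 193 cells, had 271 CPM (236 to 309) and 306 CPM (270 to 346), and 51.1% and 58.5% of its cells had a UMI, at a median of 3680 and 3434 UMIs, beside 0.398% and 1.06% of microglia-like cells. The cluster with 4 of 5 capillary markers, led by Spock2 and Cxcl12, had 25.3 CPM (19.9 to 31.6) and 31.2 CPM (25.2 to 38.3). The cluster with 5 of 6 fenestrated markers, led by Plvap and Igfbp3, had 48.6 and 67.0 CPM. The unnamed cluster with 5 of 5 arterial markers, led by Gkn3 and Bmx, held only 1 and 3 UMIs (2.87 and 11.5 CPM). Venous levels stood above the capillary, fenestrated and arterial levels in both libraries with no overlap of the intervals, and the libraries overlapped within the venous, capillary and fenestrated clusters. Cells thinned to 1000 UMIs gave shares of 25.8% and 25.4% in the venous and 3.19% and 2.53% in the capillary cluster.

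Il1r1 spans 40225080-40317257 on chromosome 1, and Gm38070, a gene model on the same strand, overlaps it and was counted apart. Gm38070 was read at 73.0 and 147 CPM in the venous and 4.98 and 11.2 CPM in the capillary cluster, and reads that fit both models cannot be told apart in the deposited counts. Mural-like cells, the pericytes and smooth muscle of the vessel wall, had 41.1 CPM (20 UMIs) and 69.1 CPM (59 UMIs) of Il1r1, a ratio of 1.68 (0.998 to 2.95) that was not a call. In the same mural-like cells all 14 immediate-early and dissociation genes were called lower in the homozygous-labelled library (summed 7170 and 2266 CPM, where 4.99% of all 5187 genes were called lower), and their part in the Il1r1 values was not tested. Fibroblast-like cells had 18.4 and 14.8 CPM. Their cluster led by Slc7a11 and Slc6a13 stood highest among them, at 54.7 and 29.8 CPM from 28 UMIs each, and was called lower with a ratio of 0.544 (0.311 to 0.954), beside 2.14% of 5274 genes called lower and 3.7% called higher. Il17rd (0.883), Pdzd2 (0.875) and Hspg2 (0.872) had the patterns most like Il1r1.

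**Figure D3:**
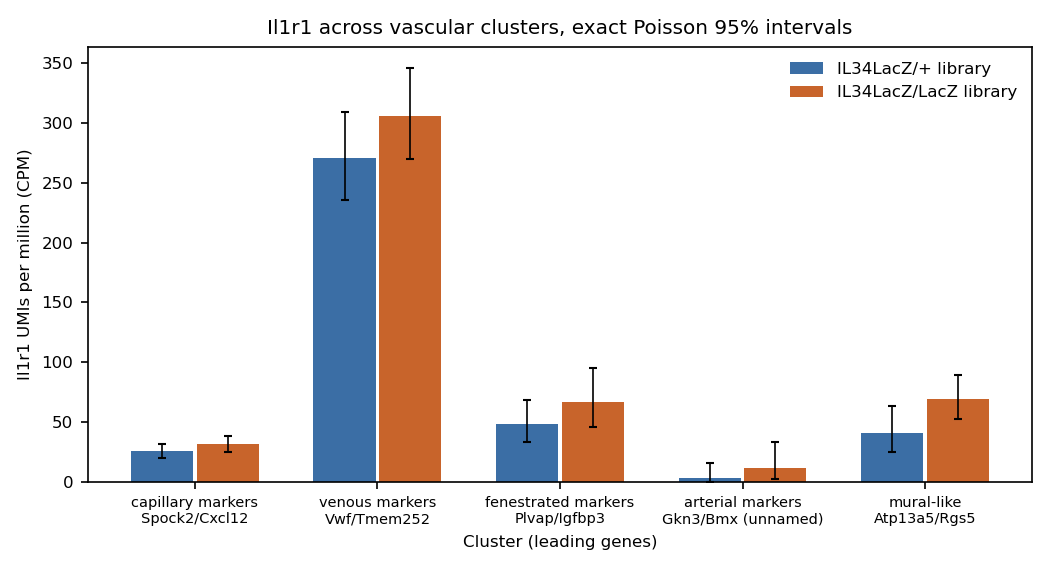
Il1r1 level (CPM, bars, with exact Poisson 95% intervals as error bars) in vascular clusters of both libraries, labelled by their marker set and leading genes. The cluster with venous markers (271 and 306 CPM) stands above all others shown in both libraries.

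Il6 was rare, with 53 and 79 UMIs over all kept cells. Microglia-like cells held 25 and 30 of these UMIs in 24 and 27 cells (10.5 CPM, 6.82 to 15.6, and 8.18 CPM, 5.52 to 11.7), mostly 1 UMI per cell, with a ratio of 0.777 (0.442 to 1.38). The level was highest in monocyte-like cells, at 36.3 CPM (10 UMIs) and 26.1 CPM (19 UMIs), from 13 cells in all. 10 of these 13 cells had at least 2 UMIs of a list of 5 mast cell and basophil markers, against 1 of the 147 other monocyte-like cells. Mcpt8, a basophil protease gene, was seen in 9 of the 13 and 1 of the 147 cells, and Ms4a2, a subunit of the IgE receptor, in 8 and 1. Monocyte genes showed the reverse, as Ly6c2 was seen in 2 of the 13 and 99 of the 147 cells and Ccr2 in 5 and 128. The mast cell tryptase and chymase genes Tpsb2 and Mcpt4 were at 0 in all 160 cells.

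Split by that list, the 5 and 6 monocyte-like cells with it held 10 and 15 Il6 UMIs (794 CPM, 381 to 1460, and 670 CPM, 375 to 1106). The 50 and 99 cells without it held 0 UMIs, which allows up to 14.01 CPM, and 4 UMIs (5.68 CPM, 1.55 to 14.5). Il6 was thus highest in those few cells among monocyte-like cells of both libraries, a split made after the values were seen. The monocyte-like level was 0 and 1.52 CPM with doublets kept and 1.99 and 1.43 CPM with at most 5% mitochondrial UMIs, for a cause that was not tested. Over all kept cells, 9 and 12 cells with the list had 233 and 216 CPM, against 0.887 and 1.13 CPM in the others. Il1b had 0 UMIs in the monocyte-like cells with the list, which allows up to 293 and 165 CPM. Those without it held 327 CPM (261 to 403) and 474 CPM (425 to 528). The intervals overlapped in the heterozygous-labelled library and were apart in the homozygous-labelled library. The patterns most like Il6 over the 16 groups were those of Cox6a2 (0.876), G430095P16Rik (0.837) and Il7r (0.836).

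Tnf, the gene of tumour necrosis factor, was found in the macrophage groups and also in granulocyte groups. Neutrophil-like cells held 32.55 CPM (20 UMIs) and 46.3 CPM (62 UMIs), and the Elane/Prtn3-led cluster 42.6 and 21.2 CPM. By mean level both stood between the H2-Eb1/H2-Ab1-led cluster and microglia-like cells. BAM markers were read at 6283 and 4176 summed CPM in neutrophil-like cells and at 890 and 2154 CPM in the Elane/Prtn3-led cluster. For each 1000 UMIs of these markers, neutrophil-like cells had 5.18 and 11.1 Tnf UMIs. The Elane/Prtn3-led cluster had 47.9 and 9.82, and BAM-like cells 3.88 and 4.20. The part of BAM markers in these Tnf levels was not tested. BAM-like cells stood at 63.8 CPM (57.7 to 70.4) from 398 UMIs and 73.0 CPM (66.4 to 80.1) from 451 UMIs, the P2ry12/Cx3cr1-led cluster at 63.0 and 61.5 CPM, the H2-Eb1/H2-Ab1-led cluster at 44.7 and 48.5 CPM, and microglia-like cells at 24.9 CPM (59 UMIs) and 36.01 CPM (132 UMIs). None of these 4 was called, and the ratio in microglia-like cells was 1.45 (1.06 to 2.003). Neighbours in this order overlapped in at least 1 library. BAM-like cells were apart from the H2-Eb1/H2-Ab1-led cluster (36.1 to 54.7 and 41.1 to 56.7) and from microglia-like cells (18.9 to 32.1 and 30.1 to 42.7) in both libraries, and the P2ry12/Cx3cr1-led cluster (50.3 to 77.9 and 50.7 to 74.03) was apart from microglia-like cells. A UMI was seen in 12.3% and 14.0% of BAM-like cells, beside 0.117% and 0.368% of endothelial-like cells. The Ccl7/Ccl2-led BAM-like cluster was highest, at 107 CPM (190 UMIs) and 149 CPM (272 UMIs), with a ratio of 1.39 (1.15 to 1.68), and the Cd209f/Cd163-led cluster had 40.3 and 40.9 CPM. As for Il1b, the one of these BAM-like clusters that was richer in Tnf was also richer in immediate-early RNA. The H2-Eb1/H2-Ab1-led cluster had more Il1b (284 and 255 CPM) than either, with 19328 and 14625 CPM of that RNA. The part of this RNA in the Tnf values was not tested. Clec4a2 (0.965), Siglece (0.960) and Alox5 (0.959) had patterns most like Tnf.

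Tnf was called lower in the Elane/Prtn3-led cluster, at 42.6 CPM (33 UMIs) and 21.2 CPM (32 UMIs), a ratio of 0.497 (0.296 to 0.833). 1 cell again held 22 of the 33 heterozygous-labelled UMIs, and without the richest cell of each library the ratio was 1.24 (0.596 to 2.77, from 11 and 27 UMIs).

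Il18, whose product is cut by caspase-1, was spread over many classes at like levels. Oligodendrocyte-like cells led with 73.2 CPM (53.2 to 98.3) from 44 UMIs and 79.7 CPM (64.6 to 97.3) from 96 UMIs, followed by the unnamed Bche/Ccn3-led cluster (48.0 and 46.8 CPM), monocyte-like cells (50.8 and 38.5 CPM), microglia-like cells (43.4 and 42.6 CPM) and the H2-Eb1/H2-Ab1-led (42.8 and 38.1 CPM) and P2ry12/Cx3cr1-led (42.98 and 37.9 CPM) clusters by mean level. BAM-like cells (37.4 and 39.8 CPM) and fibroblast-like cells (34.2 and 31.3 CPM) came after these, and neighbours in this order overlapped. Endothelial-like cells, at 6.21 and 6.49 CPM, were far below these. Il18 had enough UMIs in 11 of the 16 groups and was called in none of them. Il18 overlaps Bco2 and Tex12 on the opposite strand, and whether the counting used strand is not stated, so reads of these genes may not have been told apart. Rassf2 (0.862), Retreg1 (0.792) and Exoc3 (0.784) were the closest patterns.

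Il33, the nuclear alarmin, was highest in oligodendrocyte-like and then in fibroblast-like cells. Oligodendrocyte-like cells held 844 CPM (772 to 920) from 507 UMIs and 728 CPM (681 to 778) from 877 UMIs, with a UMI in 78.1% and 77.1% of 96 and 170 cells at a median of 5796 and 6578 UMIs, against 1.28% and 1.35% of endothelial-like cells. The ratio of 0.863 (0.773 to 0.965) was not a call, beside 2.2% of 5004 genes called lower. Positive cells held 6.76 and 6.70 UMIs on average, so the RNA was spread over the class. These cells were outside the sort gates, and the O4- gate for mural cells and fibroblasts would leave oligodendrocytes out. Fibroblast-like cells stood at 235 CPM (223 to 249) and 170 CPM (162 to 180), a ratio of 0.724 (0.670 to 0.782) that was not a call, beside 1.43% of 11769 genes called lower. With cells of at most 5% mitochondrial UMIs the fibroblast-like ratio was 1. Endothelial-like, BAM-like and microglia-like cells had 5.56 CPM or less in both libraries. Gng8 (0.921), Aspa (0.912), an enzyme of oligodendrocytes, and Hhip (0.896) had patterns most like Il33.

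Among fibroblast-like clusters, Il33 differed more between libraries in some than in others. It stood at 264 and 201 CPM in the Mfap4/Cpz-led cluster (ratio 0.761, 0.688 to 0.842), at 260 and 301 CPM in the Slc7a11/Slc6a13-led cluster (1.16, 0.940 to 1.43) and at 120 and 83.4 CPM in the Krtdap/Chad-led cluster (0.697, 0.563 to 0.865). None of these 3 was called, where 1.62%, 2.14% and 1.94% of genes were called lower in this order. A cluster led by the pituitary hormone genes Prl and Pomc had 334 CPM (176 UMIs) and 147 CPM (143 UMIs), a ratio of 0.440 (0.350 to 0.551), and was called lower. In that cluster, in which Bglap, Ibsp and Gh also stood among the leading genes and 9 of 10 fibroblast markers were at least 2-fold enriched, 8.95% of 5130 genes were called lower and 8.58% higher. The 10 fibroblast markers went the same way there, at 25086 and 13266 summed CPM, and their part in the result was not tested.

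Tslp was highest in BAM-like cells. They held 142 CPM (133 to 152) from 887 UMIs and 161 CPM (151 to 171) from 992 UMIs, 69.0% and 64.2% of all Tslp UMIs in kept cells. The ratio was 1.13 (1.03 to 1.24), not a call. A UMI was seen in 37.9% and 45.1% of BAM-like cells at a median of 3383 and 3848 UMIs, and in 1.06% and 0.771% of microglia-like cells at 2702 and 3080 UMIs. After thinning to 1000 UMIs per cell the shares were 13.4% and 13.5% in BAM-like cells, a difference below counting error at equal depth. Unlike Il1b and Tnf, Tslp was spread evenly, since 169 and 175 cells were needed for 50.2% and 50.1% of its UMIs. The Cd209f/Cd163-led BAM-like cluster had the most (166 and 181 CPM), and the Ccl7/Ccl2-led (107 and 124 CPM) and the interferon-responding Cxcl10/Ifit2-led clusters (103 and 99.96 CPM) less. Cd28 (0.911), C2 (0.902) and Ccl7 (0.893) had the patterns most like Tslp over the 16 groups.

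**Figure D4:**
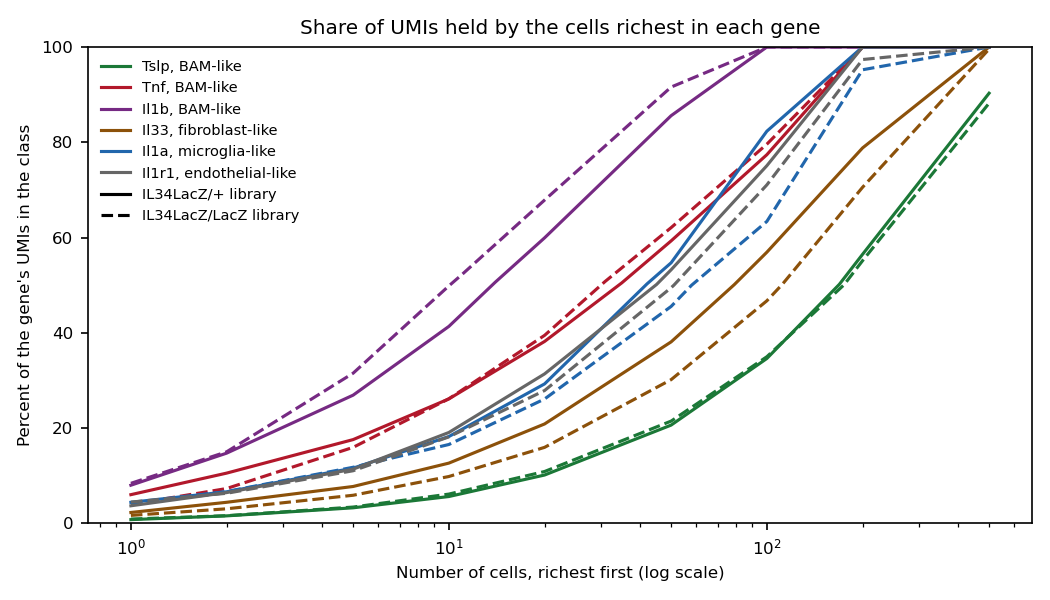
Cumulative share of a gene's UMIs (vertical axis, percent) against the number of cells taken from the richest down (horizontal axis, log scale), for 6 genes in the class named in the key; solid and dashed lines are the IL34LacZ/+ and IL34LacZ/LacZ libraries. In BAM-like cells Il1b reached 50.6% and 52.3% of its UMIs in 14 and 11 cells, Tnf 50.5% and 50.8% in 35 and 31 cells, and Tslp 50.2% and 50.1% in 169 and 175 cells.

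Other immune groups with Tslp held BAM markers too. For each 1000 UMIs of the 10 BAM markers there were 8.65 and 9.25 Tslp UMIs in BAM-like cells, 8.65 and 8.90 in the P2ry12/Cx3cr1-led cluster, 7.20 and 6.21 in the H2-Eb1/H2-Ab1-led cluster and 11.1 and 9.49 in neutrophil-like cells. Fibroblast-like cells had 93.4 and 65.1 and mural-like cells 286 and 132, well above the macrophage ratio. Their Tslp levels were low, at 11.9 and 12.05 CPM in fibroblast-like cells and 37.0 CPM (18 UMIs) and 18.7 CPM (16 UMIs) in mural-like cells.

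Tslp was called lower in neutrophil-like cells, at 70.0 CPM (43 UMIs) and 39.6 CPM (53 UMIs), a ratio of 0.566 (0.371 to 0.867) beside 4.41% of 4670 genes called lower. BAM markers went the same way there, at 6283 and 4176 summed CPM. 43.8% and 33.1% of the neutrophil-like cells held at least 0.5% of their UMIs in BAM markers, and these had 124 and 80.8 CPM of Tslp against 16.2 CPM (5 UMIs) and 9.10 CPM (7 UMIs) in the others. The second call was in the H2-Eb1/H2-Ab1-led cluster, at 53.7 CPM (113 UMIs) and 34.4 CPM (110 UMIs), a ratio of 0.640 (0.488 to 0.839), where 1.82% of genes were called lower. BAM markers stood at 7465 and 5536 CPM in it. Cells of this cluster with at least 0.5% of their UMIs in BAM markers (56.3% and 48.7%) had 85.8 and 70.3 CPM of Tslp, and the others 2.47 CPM (2 UMIs) and 4.04 CPM (7 UMIs). The ratio among the others, 1.63 (0.311 to 16.1), rests on these few UMIs and gives no direction. The part of BAM markers in both calls was not tested. The call in this cluster passed the 1.5-fold limit in 5 of 13 settings.

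Among fibroblast-like clusters, Tslp was called lower in the Krtdap/Chad-led cluster, at 20.7 CPM (27 UMIs) and 10.7 CPM (26 UMIs), a ratio of 0.516 (0.289 to 0.919) beside 1.94% of genes called lower and 2.4% higher. It was called higher in the Mfap4/Cpz-led cluster, at 6.27 CPM (19 UMIs) and 11.6 CPM (43 UMIs), a ratio of 1.85 beside 2.43% of genes. With cells of up to 20% mitochondrial UMIs kept, the latter ratio was 1.04.

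Within BAM-like cells thinned to 1000 UMIs, Tslp was found together with Il1b, Tnf or Il18 about as often as the separate shares give. Pairs with too few expected cells were left out, so Il1b with Tnf was not assessed. Il1b and Tslp were seen together in 5 and 5 cells (4.71 and 4.47 from the product of the shares), Tnf and Tslp in 11 and 10 cells (10.2 and 9.07), and Il18 and Tslp in 8 and 10 cells (6.72 and 7.31).

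**Figure D5:**
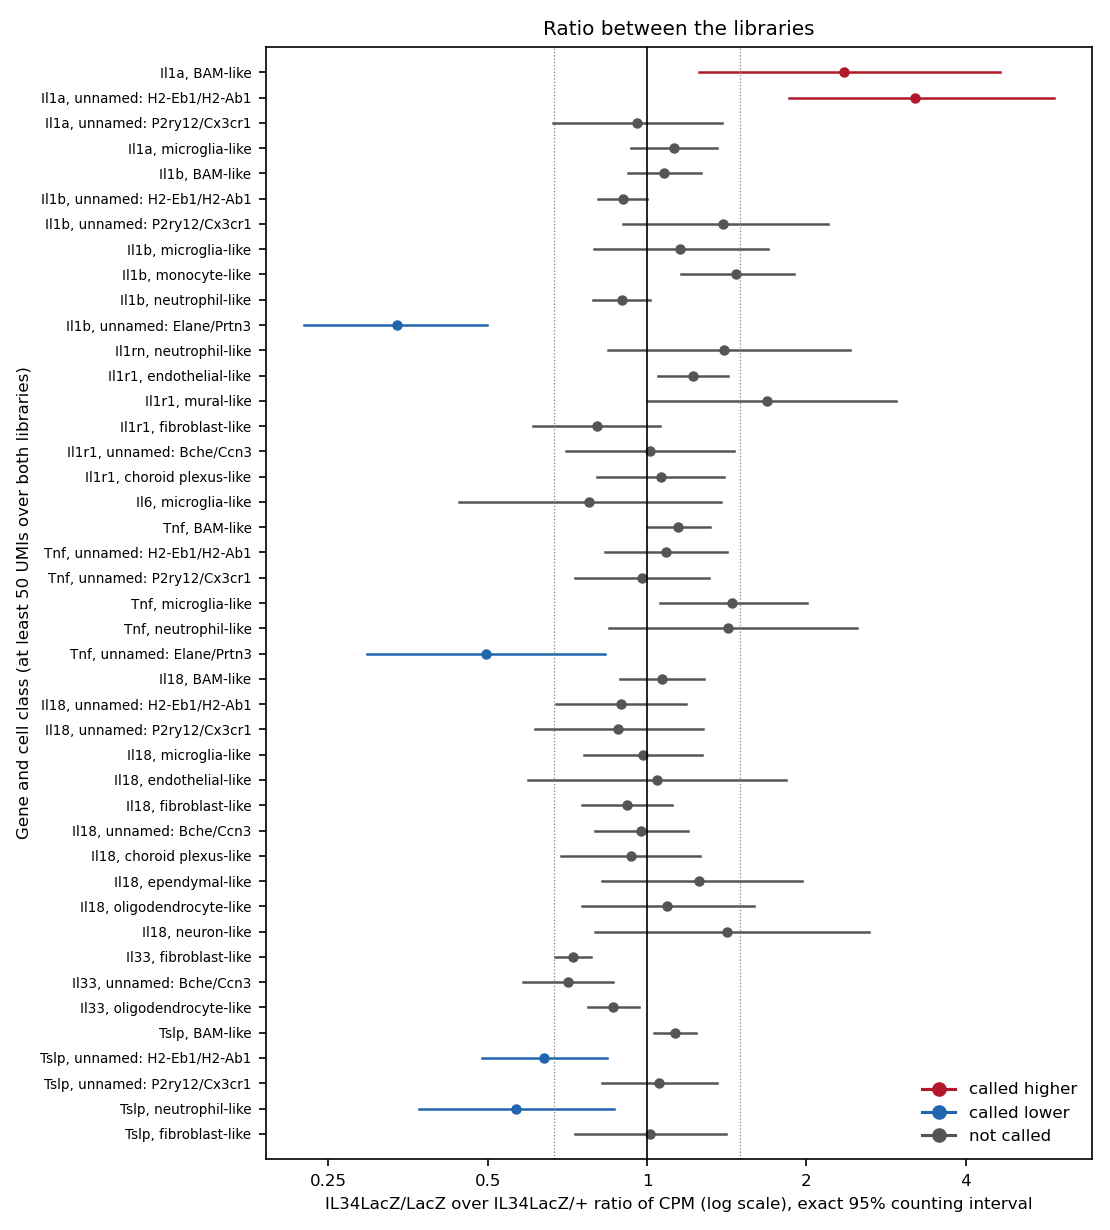
Ratio of the homozygous-labelled to the heterozygous-labelled CPM (horizontal axis, log scale) for the 43 combinations of gene and cell class with at least 50 UMIs, with exact 95% counting intervals as lines; dotted lines mark the 1.5-fold limit. 2 combinations were called higher and 4 lower, and 37 were not called.

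Over all 9 genes, 43 of 144 combinations of gene and group had at least 50 UMIs, of which 2 were called higher, 4 lower and 37 not at all. In choroid plexus epithelial-like cells, where 2 members had enough UMIs, 4.79% of genes were called higher and 0.331% lower. These shares were 1.8% and 1.52% in ependymal-like, 3.45% and 3.39% in neuron-like, 4.61% and 3.12% in monocyte-like and 4.82% and 4.99% in mural-like cells. They were 2.71% and 1.33% in endothelial-like, 1.78% and 2.2% in oligodendrocyte-like and 3.79% and 1.43% in fibroblast-like cells, 2.07% and 1.6% in the Bche/Ccn3-led, 5.1% and 4.46% in the Elane/Prtn3-led, 1.98% and 1.75% in the P2ry12/Cx3cr1-led and 2.89% and 2.64% in the Gkn3/Bmx-led cluster. Il1rn, Il1r1, Il6, Il18 and Il33 had no call among the 16 groups, and every leading class of a member had a ratio between 0.721 (Il6) and 1.40 (Il1rn). In BAM-like cells 1 of 5 members with enough UMIs was called, and in microglia-like cells 0 of 5, where 2.25% of 8862 genes were called higher and 1.47% lower.

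Receptors and processing genes were read from lists. Of the receptors for IL-6, TNF and TSLP, 5 of 6 had enough UMIs in BAM-like cells and 6 of 6 in microglia-like cells, and 0 were called in either class. Crlf2, the TSLP receptor chain, was highest in BAM-like cells (110 and 104 CPM), the class that also held most Tslp. Crlf2 was not particular to them, as the H2-Eb1/H2-Ab1-led (96.1 and 88.15 CPM) and P2ry12/Cx3cr1-led (87.45 and 89.0 CPM) clusters stood close behind. Its partner Il7r stood at 55.6 and 49.1 CPM in microglia-like cells. From 16 and 25 UMIs, Il7r stood at 58.0 and 34.4 CPM in monocyte-like cells. Tnfrsf1a was highest in BAM-like cells (117 and 136 CPM), Tnfrsf1b in monocyte-like cells (178 and 208 CPM), Il6ra in microglia-like cells (298 and 320 CPM) and the shared chain Il6st in fibroblast-like cells (149 and 182 CPM).

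Of 8 IL-1 family receptors, co-receptors and decoys, 3 had enough UMIs in BAM-like and 3 in microglia-like cells. Il1rl1, the IL-33 receptor, was called lower in BAM-like cells (6.25 and 3.56 CPM, ratio 0.570, 0.322 to 0.985) and higher in microglia-like cells (7.17 and 14.2 CPM from 17 and 52 UMIs, 1.98, 1.13 to 3.65). Il1rap, the co-receptor, was called higher in microglia-like cells (5.48 and 10.6 CPM, 1.94, 1.01 to 3.96). The Il1rl1 and Il1rap calls were at low levels and were not recomputed under the alternative settings. Il1rap was highest in oligodendrocyte-like cells, at 188 and 230 CPM. The decoy Il1r2 was highest in neutrophil-like cells (61.9 and 70.3 CPM), as were Il1b and Il1rn. The inhibitory Sigirr stood at 77.6 and 80.4 CPM in the arterial-marker cluster led by Gkn3 and Bmx, from only 27 and 21 UMIs. Endothelial-like cells followed at 60.3 CPM (272 UMIs) and 58.6 CPM (253 UMIs).

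Of 8 processing and inflammasome genes, all 8 in BAM-like and 7 in microglia-like cells had enough UMIs, and 0 were called. The median ratio was 1.08 in BAM-like and 0.971 in microglia-like cells, beside 1.03 and 0.999 over all genes measured. Pycard, the inflammasome adaptor (344 and 280 CPM), Adam17, the protease that sheds TNF (159 and 155 CPM), and Aim2 (95.3 and 88.7 CPM) were highest in microglia-like cells, and Nlrc4 (48.4 and 51.7 CPM) in BAM-like cells. Gsdmd stood at 67.9 and 63.02 CPM in microglia-like cells and, from 15 and 54 UMIs, at 54.4 and 74.3 CPM in monocyte-like cells. Casp1 stood at 68.9 CPM (19 UMIs) and 61.9 CPM (45 UMIs) in monocyte-like and 61.4 and 67.03 CPM in BAM-like cells, which changed places between the libraries.

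Of 16 signalling and feedback genes, 0 were called higher and 1 lower in BAM-like cells. That gene was Nfkbia, the inhibitor of NF-kappaB, at 296 and 176 CPM (ratio 0.596, 0.552 to 0.642). In monocyte-like cells Nfkbia was called higher, at 326 and 519 CPM (1.59, 1.26 to 2.02). Zc3h12a, an RNase that degrades cytokine transcripts, was called lower in microglia-like cells (20.7 and 12.8 CPM, 0.621, 0.407 to 0.946). Of 17 further cytokine and alarmin genes in the matrices, 0 were called in BAM-like cells. In both lists a gene with under 50 UMIs in a class could not be called there. Il1f10, for example, had 0 UMIs in BAM-like cells. Osm, whose pattern was most like Il1b, was called higher in monocyte-like cells (156 and 279 CPM, 1.79, 1.28 to 2.55) and in microglia-like cells (15.6 and 23.5 CPM, 1.504, 1.01 to 2.28) and lower in the H2-Eb1/H2-Ab1-led cluster (53.7 and 26.6 CPM, 0.494, 0.369 to 0.661). The Nfkbia, Zc3h12a and Osm calls were not recomputed under the alternative settings.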

How the data were processed

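Expression was measured in 2 single-cell libraries, 1 per genotype. The values are UMI counts per gene and barcode that the authors deposited, which Cell Ranger (5.0.0 per the file headers) wrote, with builds GRCm38.p6 and mm10 per the submitters' processing notes. Whether counting used strand is not stated. Barcodes with at least 1000 UMIs, 500 genes and at most 10% mitochondrial UMIs were kept after removal of doublets with Scrublet in scanpy 1.11.5 (1159 and 1405 barcodes). Cells were clustered on 2000 variable genes without the 9 members (30 components, 20 neighbours, leidenalg 0.10.2, resolution 1). Clusters were named from marker lists, with naming limits set after the data were seen.

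Levels were summed UMIs per 1000000 UMIs of a class, with exact Poisson intervals. Ratios had exact conditional binomial intervals and shares Clopper-Pearson intervals, all at 95% and covering counting error only. Limits for a count of 0 were the upper ends of the exact Poisson intervals. Shares were also computed with cells thinned to 1000 UMIs. The calling procedure was tested on Poisson counts simulated for the BAM-like class, which is the model its intervals assume. UMIs concentrated in few cells were not simulated, so the test does not show how calls behave there. Analysis used numpy 2.4.6, scipy 1.17.1 and pandas 2.3.3.

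All 9 members were named, together with the 3 genes most like each member with at least 50 UMIs in each library, pathway genes that were called, and receptor and processing genes at their highest class. A gene that met this rule for Il1a is not reported here. The members and lists were chosen with earlier results of these data known. Alternatives were other filters, doublets kept, other resolutions, members among the variable genes, other scalings and leaving out the richest cell; removing shared barcodes or cells with macrophage markers was added after the data were seen.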

Additional observations from a re-analysis of the deposited data

Results flagged for a closer look

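Tslp differed in direction between cell groups. Its ratio of homozygous-labelled to heterozygous-labelled CPM was 0.516 in the Krtdap/Chad-led fibroblast-like cluster and 1.85 in the Mfap4/Cpz-led fibroblast-like cluster, and both were called. In neutrophil-like cells the ratio was 0.566, while it was 1.13 in BAM-like cells. With 1 library per genotype, these differences between cell groups were not tested.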

How the results depend on the processing

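No paired analysis was possible because each genotype had 1 library. Of 628 ratios recomputed under the alternatives, 587 kept within counting error of the reported value, 36 moved and 5 reversed. Levels moved in 34 of 156 values. Shares of cells moved in 31 of 36, where the alternatives were cells thinned to 1000 or 2000 UMIs, and thinning by itself lowers a share. Counts of genes past the fold moved in 37 of 48. Their alternatives were minima of 20 or 100 UMIs and a 2-fold limit, which by themselves change a count. With at most 5% mitochondrial UMIs, the ratio of Tnf in BAM-like cells was 0.971 (87.6 and 85.1 CPM), of Il1b in neutrophil-like cells 1.07 (317 and 338 CPM) and of Il33 in oligodendrocyte-like cells 0.712 (740 and 527 CPM); levels were 127.5 and 144.5 CPM for Tslp in BAM-like, 49.7 and 63.5 for Il1r1 in endothelial-like, 1.99 and 1.43 for Il6 in monocyte-like and 14.6 and 31.1 for Il1rn in neutrophil-like cells. With at least 500 UMIs, Tslp in BAM-like cells had a ratio of 0.998 (124.3 and 124.1 CPM), Il6 in homozygous-labelled monocyte-like cells stood at 13.2 CPM and Il1b in the Elane/Prtn3-led cluster reversed to 3.78. With at least 2000 UMIs, Il6 in monocyte-like cells was 0 and 6.06 CPM. With doublets kept, it was 0 and 1.52 CPM, and Il33 in oligodendrocyte-like cells 764 and 669 CPM. At resolution 0.5, Il1b in neutrophil-like cells was 329 and 280 CPM and Il1rn 15.2 and 23.9 CPM, 2 combinations of member and class were called in place of 6, and no monocyte-like class could be named. At resolution 2, Tnf in homozygous-labelled BAM-like cells was 65.8 CPM, Tslp there had a ratio of 1.003 (124.9 and 125.3 CPM) and Il6 in monocyte-like cells was 17.2 and 12.9 CPM. Without cells holding macrophage markers, Il1b in neutrophil-like cells had a ratio of 1.15 (552 and 633 CPM), Tnf in the Elane/Prtn3-led cluster reversed to 2.30 (7 and 30 UMIs), Tslp in the H2-Eb1/H2-Ab1-led cluster reversed to 1.63 (2 and 7 UMIs, too few for a direction), and 2 combinations were called. Without the richest cell of each library, Il1b and Tnf in the Elane/Prtn3-led cluster reversed to 1.61 and 1.24. Il1a kept its direction and the 1.5-fold in BAM-like cells (1.86 to 3.89) and in the H2-Eb1/H2-Ab1-led cluster (1.86 to 3.57) in 13 of 13 settings, but the call was lost in BAM-like cells without the richest cell, with at least 2000 UMIs and at resolution 0.5, and in the H2-Eb1/H2-Ab1-led cluster with at most 5% mitochondrial UMIs. The count of genes past the fold was 188 in BAM-like cells at a minimum of 100 UMIs and 56 at a 2-fold limit; 536, 174 and 106 in neutrophil-like cells at 20 UMIs, 100 UMIs and 2-fold; 311 and 182 in the Elane/Prtn3-led cluster and 276 and 137 in the H2-Eb1/H2-Ab1-led cluster at 100 UMIs and 2-fold. For ratios and levels that moved, the cause was not tested. Depth limited Il1rn and Il6 most, and with 1 library per genotype the spread between animals is unknown.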

Other observations

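Groups with under 50 cells in a library entered no comparison. In 13 and 15 astrocyte-like cells Il18 stood at 167 CPM (13 UMIs) and 198 CPM (20 UMIs), and Il33 at 168 CPM (17 UMIs) in the homozygous-labelled library. An unnamed cluster led by the interferon-induced genes Ifit1 and Ifit3, with 23 and 61 cells, held 63.9 CPM of Il18 (32 UMIs) and 75.9 CPM of Il33 (38 UMIs) in the homozygous-labelled library. B lineage-like cells held 79.3 CPM of Il1b (20 UMIs) in the same library.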
